A study of Arabidopsis thaliana with 96 samples.

Results

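Transcripts of 7 genes of DNA replication and of the G2 and M phases of the cell cycle were followed in sorted cells of the Arabidopsis thaliana root, in standard medium and in salt. The genes are the Aurora kinases AUR1 (AT4G32830) and AUR2 (AT2G25880), the topoisomerase gene TOPII (AT3G23890), the HMG-box genes 3xHMG-box1 (AT4G11080) and 3xHMG-box2 (AT4G23800), the helicase subunit gene PRL (AT4G02060) and AT4G15830. They were chosen by function, with earlier results of these data known, from the genes whose probe set pairs with exactly 1 gene. Other cell cycle genes with such a probe set are given further below, so counts of calls among the 7 describe this list alone. Each of the 7 has 1 such probe set, and they are 7 of 13356 genes measured in that way. A gene was tested where at least 1 group of arrays had a mean level of 5 or more (log2), which 7281 genes and all 7 of these met. 3xHMG-box1 reached that level in 4 groups, all of them in salt, so that it had to differ between media to be tested. Counts are therefore also given without it, and its own p-values come from a fit with no filter, over all 13356 genes, in which the same 12 salt comparisons of it were called. The others reached it in 8 to 29 groups, at least 1 of them in standard medium.

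RNA was measured on 96 Affymetrix ATH1 arrays, which read each transcript with a set of probes in 1 colour. The plants were Columbia seedlings 5 to 7 days past germination that carried a green fluorescent protein (GFP) reporter, and their roots were turned into protoplasts and sorted for it. WER::GFP served for the epidermis, COR::GFP for the cortex, SCR::GFP for the endodermis, the innermost layer of the ground tissue, and WOL::GFP for the stele, the vascular core. For each of these 4 cell types there were 8 conditions of 3 arrays, namely standard medium for 1 h and 48 h and medium with 140 mM NaCl for 1, 3, 8, 20, 32 and 48 h. A reporter line and its sort cannot be told apart from the cell type. The labels do not say whether replicates came from separate cultures, so p-values reflect no more than the spread among these arrays, part or all of which may be technical.

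A dividing plant cell copies its DNA in S phase, when the MCM helicase unwinds the double strand, and then separates the copies in mitosis on a spindle that Aurora kinases help to order. Topoisomerase II removes the tangles between sister DNA molecules, and HMG-box proteins bind and bend DNA in chromatin. In the root, cells that divide lie in the meristem near the tip, and the same 4 cell types also hold cells that elongate or mature and no longer divide. Transcripts of this kind are therefore a mixture over cells in each sorted sample. A lower share of dividing cells and less RNA per dividing cell cannot be told apart in such bulk samples.

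The arrays had medians between 4.51 and 4.97 over all probe sets, and pairs of arrays of a group correlated at 0.916 to 0.997 over the genes tested. Epidermis standard 48 h replicates 1 and 3 (mean r 0.940 and 0.943) and stele standard 1 h replicate 3 (0.933) were the 3 arrays under 0.95. Stele standard 1 h replicate 3 stood above the other 5 standard arrays of the stele in 6 of the 7 genes, for example with a TOPII level of 5.91 against 3.34 to 4.40 and a PRL level of 5.83 against 4.01 to 4.78. AUR2 was the exception, at 6.69 within the range of 5.30 to 6.88. BBM, listed as a gene of the root meristem but too low to be tested, also read 4.80 on that array against 3.05 and 3.18 on the other standard 1 h arrays of the stele. UPB1, the other gene measured of those listed for the root meristem, read 8.30 on it against 8.14 and 8.28. Counts of calls of the 7 genes in the stele, and their called changes there, are therefore given with and without these 3 arrays. Of the cell type markers, AT1G62510 and AT1G09750 were highest in cortex samples and GSO1 in endodermis samples, whereas the epidermal expansin genes EXPA7 and EXPA18 had standard means of 9.16 and 8.53 in epidermis samples and 9.99 and 9.65 in stele samples, and the stele marker LHW differed little (4.18 to 4.57).

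Salt was compared at each time with the mean of the cell type's standard 1 h and 48 h groups, and calls needed an adjusted p under 0.05 (limma, Benjamini-Hochberg over the 7281 genes) with a change of 1 or more on the log2 scale, that is 2-fold. Of 168 combinations of gene, cell type and time, 51 were called higher in salt and 3 lower. The rises lay mostly outside the stele, with 14 of 42 for epidermis samples and 17 of 42 for both cortex and endodermis samples, against 3 of 42 for the stele. Without 3xHMG-box1 they were 39 of 144, with 10 of 36 for epidermis, 14 for cortex, 12 for endodermis and 3 for stele samples. Shares of all genes called higher are given below for each cell type and time. The stele total of 3 of 42 lay within the range of those shares in the stele. In 48 of the 51, all those of the epidermis, cortex and endodermis, every salt array lay above every one of the 6 standard arrays. Combinations already called at 2-fold are likely to show such a gap, and its share over all genes is not given. The 6 comparisons of a cell type share the same 6 standard arrays and are not independent. The falls were those of AUR2 at 3 h in the endodermis and the stele and of 3xHMG-box2 at 3 h in the stele.

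**Figure D1:**
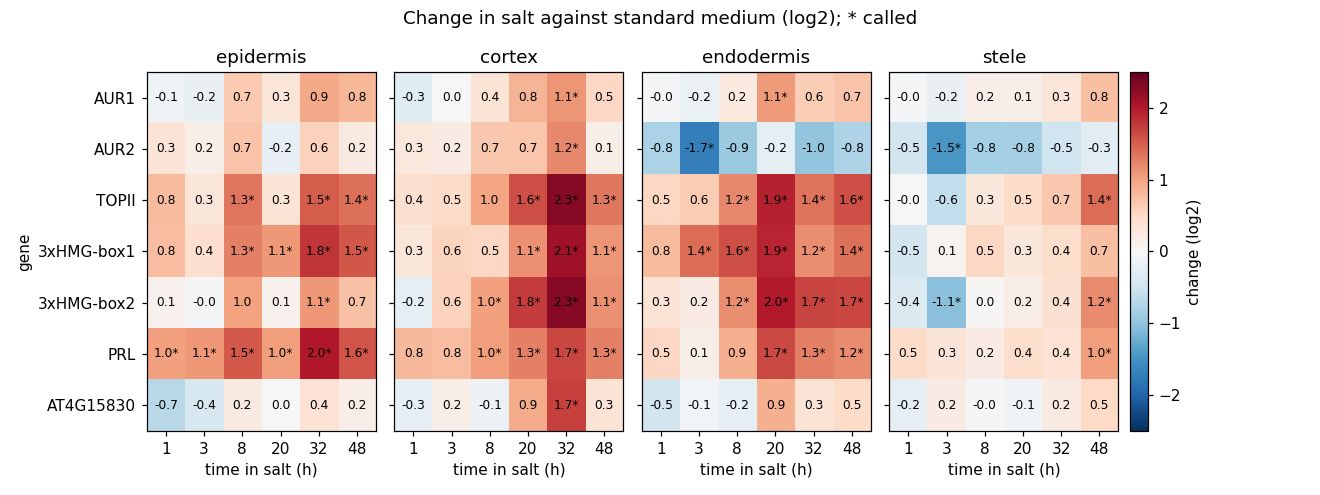
Change in level (log2) of each gene (rows) at each time in 140 mM NaCl (columns, h) against the mean of the cell type's standard 1 h and 48 h groups, 1 panel per cell type, with an asterisk where the change was called. All 7 genes carry an asterisk at 32 h in the cortex, the stele has 3 asterisks for a rise, all at 48 h, and AUR2 is blue in the endodermis and stele at all 6 times.

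In the epidermis, 1 of the 7 genes was called higher at 1 h, where 4.16% of all genes tested were, and 1 at 3 h, where 13.1% were, which is close to that background. The count was 3 at 8 h (background 10.9%), 2 at 20 h (13.9%), 4 at 32 h (17.2%) and 3 at 48 h (16.8%). Of the 6 genes other than 3xHMG-box1, 2 were called at 8 h, 1 at 20 h, 3 at 32 h and 2 at 48 h. The median change of the 7 genes was 1.00 at 8 h, 0.31 at 20 h and 1.09 at 32 h (0.86, 0.21 and 1.02 without 3xHMG-box1), while the median over all genes lay between 0.07 and 0.16 at the 6 times. Centring each array on its median moved that median over all genes to between -0.13 and 0.02 and gave 9 calls in place of 14.

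In the cortex no gene of the 7 was called at 1 h (background 3.31%) or 3 h (4.04%) by limma, with unadjusted p under 0.05 for 1 and 2 of them. The count of genes called higher was 2 at 8 h (7.76%), 4 at 20 h (12.1%), 7 at 32 h (13.8%) and 4 at 48 h (11.2%), or 2, 3, 6 and 3 without 3xHMG-box1. At 32 h the 7 changes ran from 1.11 for AUR1 to 2.28 for 3xHMG-box2, that is from 2.15-fold to 4.87-fold, with a median of 1.72 (1.69 without 3xHMG-box1) against 0.03 for all genes. Actin probe sets read 4.22 (log2) higher at the 3′ than at the 5′ end in that group against 3.73 and 3.53 in the standard groups, a sign of RNA integrity or amplification whose part in the result was not tested. Over the 32 group means this difference had r of 0.19 with the mean level of the 7 genes, and those of GAPDH and ubiquitin had r of -0.22 and 0.48.

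In the endodermis none of the 7 was called at 1 h by limma (background 2.62% higher), with unadjusted p under 0.05 for 3. At 3 h, 1 was called higher (6.22%) and 1 lower (13.3%). The rises then numbered 3 at 8 h (8.31%), 5 at 20 h (13.0%), 4 at 32 h (10.3%) and 4 at 48 h (10.2%). Without 3xHMG-box1 none rose at 3 h, and 2, 4, 3 and 3 did at those later times. The median change was 1.66 at 20 h and 1.19 at 48 h (1.36 and 0.95 without 3xHMG-box1), against 0.06 for all genes at both times.

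In the stele no gene was called higher at 1 h (4.22%), 3 h (7.36%), 8 h (7.16%), 20 h (5.04%) or 32 h (7.70%), and 2 were called lower at 3 h (11.6%). At 1, 8, 20 and 32 h, where limma called none in either direction, the genes with an unadjusted p under 0.05 numbered 1, 2, 1 and 1. At 48 h 3 were called higher (11.5%), with salt and standard arrays that overlapped. Without the 3 arrays that stood apart, TOPII at 32 h and 3xHMG-box1 at 48 h were also called higher and 3xHMG-box2 at 3 h was not called. The median change of the 7 genes was then 0.63 at 32 h and 1.02 at 48 h, against 0.36 and 0.76 with them.

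**Figure D2:**
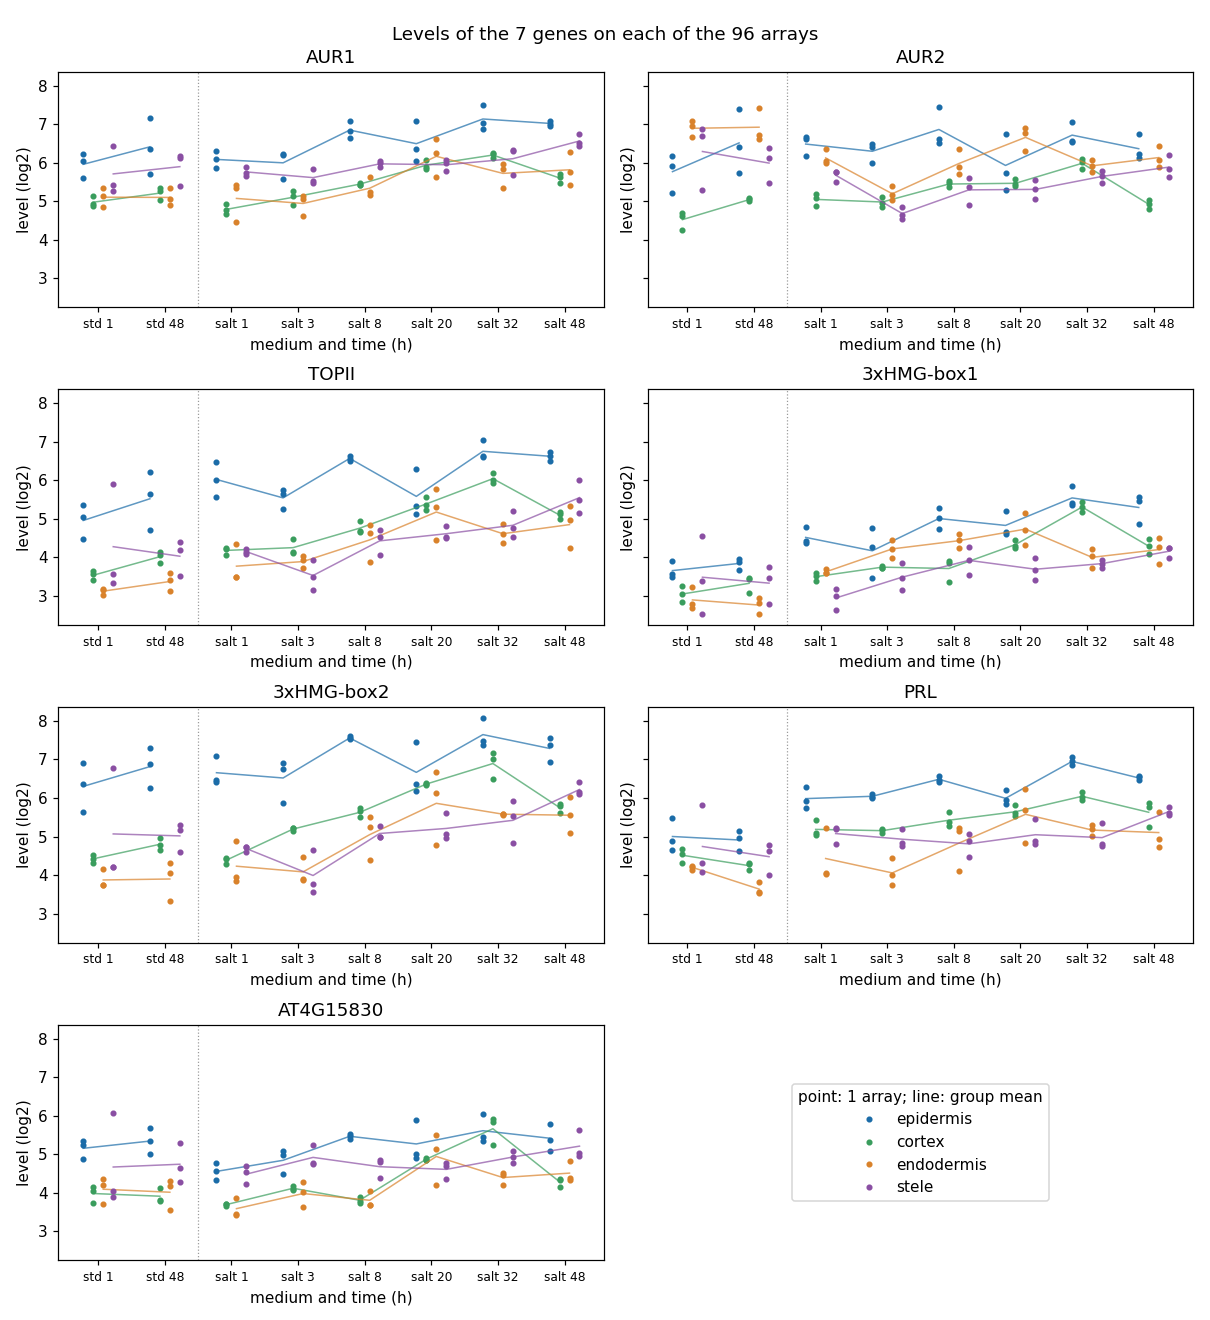
Level (log2) of each of the 7 genes on each array (points) and the group mean (lines), by medium and time (h; std, standard medium) and coloured by cell type. Epidermis means are the highest in standard medium for each gene but AUR2, cortex means peak at 32 h of salt, and 1 stele array at standard 1 h lies above the other 5 standard arrays of the stele in 6 of the 7 genes.

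PRL encodes MCM7, a subunit of the MCM helicase that unwinds DNA at replication. It was called higher in 14 of 24 salt comparisons, and its change was above 0 in all 24 (0.14 to 1.99). In the epidermis it was called at every time. Its epidermis levels were 5.47, 4.87 and 4.66 at standard 1 h and 5.14, 4.96 and 4.63 at standard 48 h. In salt they were 6.30, 5.92 and 5.74 at 1 h, 6.42, 6.47 and 6.57 at 8 h and 6.84, 6.95 and 7.06 at 32 h. All 18 salt arrays of the epidermis lay above all 6 standard arrays. The change was 1.03 (SE 0.24, adjusted p = 0.0004) at 1 h, 1.53 (SE 0.24, adjusted p = 1.2e-07) at 8 h and 1.99 (SE 0.24, adjusted p = 4.0e-11) at 32 h, the last a 3.98-fold difference.

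Outside the epidermis PRL was called from 8 h in the cortex, from 20 h in the endodermis and at 48 h in the stele. Its cortex levels were 4.56, 4.30 and 4.68 at standard 1 h, 4.31, 4.12 and 4.30 at standard 48 h and 6.04, 6.16 and 5.94 after 32 h of salt, so that the groups lay apart. Endodermis levels were 4.14, 4.24 and 4.22 at standard 1 h and 3.81, 3.57 and 3.54 at standard 48 h, against 5.68, 4.82 and 6.22 after 20 h of salt, which were apart but more scattered. At 1 h in the cortex all 3 salt arrays already lay above the 6 standard ones, with a change of 0.81 (adjusted p = 0.0049) that missed the size threshold.

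Several PRL calls lay just over that threshold. Leaving out epidermis salt 1 h replicate 1 gave 0.87 at 1 h, and leaving out epidermis standard 1 h replicate 2 or 3 or standard 48 h replicate 3 gave 1.00, 0.94 and 0.96, the first of these also under 1 before rounding. At 20 h in the epidermis the change was 0.93 without salt 20 h replicate 2, 0.95 without standard 1 h replicate 3 and 0.97 without standard 48 h replicate 3. At 8 h in the cortex it was 0.94 without salt 8 h replicate 1 and 0.99 without standard 1 h replicate 2, and at 48 h in the endodermis 0.91 without salt 48 h replicate 3. The stele call at 48 h (1.04, SE 0.24, adjusted p = 0.00015) was 0.98 without salt 48 h replicate 3, 0.87 and 0.93 without standard 1 h replicates 1 and 2, and 0.92 without standard 48 h replicate 2, whereas it was 1.31 (adjusted p = 6.6e-07) without the 3 arrays that stood apart. With arrays centred on their medians or quantile normalized, the PRL changes at 1, 3 and 20 h in the epidermis, 8 h in the cortex and 48 h in the stele ranged from 0.76 to 0.95. Against standard 1 h alone, the changes at 1 and 20 h in the epidermis, 8 h in the cortex, 32 and 48 h in the endodermis and 48 h in the stele ranged from 0.90 to 0.99. In every case named here the adjusted p stayed under 0.05.

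TOPII encodes topoisomerase II, which untangles sister DNA molecules before they separate. It was called higher in 11 of 24 salt comparisons, at 8, 32 and 48 h in the epidermis, at 20, 32 and 48 h in the cortex, at 8 to 48 h in the endodermis and at 48 h in the stele. In the cortex its level was 3.64, 3.56 and 3.41 at standard 1 h and 4.15, 4.06 and 3.85 at standard 48 h. After salt it was 4.22, 4.25 and 4.08 at 1 h, 4.93, 4.65 and 4.70 at 8 h and 5.58, 5.22 and 5.36 at 20 h. It then read 6.19, 5.94 and 6.0 at 32 h and 5.13, 4.99 and 5.19 at 48 h, so the 32 h arrays were the highest of the cortex and the groups from 8 h on lay above all standard arrays. The changes were 0.98 (SE 0.30, adjusted p = 0.0036, short of the size threshold) at 8 h, 1.61 (SE 0.30, adjusted p = 3.0e-06) at 20 h, 2.27 (SE 0.30, adjusted p = 5.8e-10) at 32 h and 1.32 (SE 0.30, adjusted p = 9.3e-05) at 48 h.

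In the endodermis TOPII had the lowest standard levels, 3.16, 3.18 and 3.02 at 1 h and 3.14, 3.41 and 3.59 at 48 h. They stood at 5.31, 4.44 and 5.79 after 20 h of salt, a change of 1.93 (SE 0.30, adjusted p = 5.1e-08), with replicate 2 the lowest of the 3 but still above every standard array. In the epidermis the level was 5.35, 5.06 and 4.47 at standard 1 h and 6.22, 5.65 and 4.70 at standard 48 h. It was 6.64, 6.55 and 6.51 after 8 h of salt and 5.34, 6.29 and 5.12 after 20 h, the first apart from the standard arrays and the second overlapping them. The change was 1.33 (SE 0.30, adjusted p = 7.8e-05) at 8 h and 0.34 (SE 0.30, adjusted p = 0.31) at 20 h. Against standard 1 h alone, TOPII was also called at 1 h in the epidermis (1.06) and at 8 h in the cortex (1.22).

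In the stele TOPII stood at 3.34, 3.58 and 5.91 at standard 1 h, 4.40, 3.51 and 4.18 at standard 48 h, 3.93, 3.50 and 3.16 after 3 h of salt and 5.16, 5.48 and 6.01 after 48 h. The 48 h arrays exceeded 5 of the 6 standard arrays, and the call of 1.40 (SE 0.30, adjusted p = 3.5e-05) became 1.81 without the 3 arrays that stood apart. At 32 h the change was 0.68 with those arrays and 1.09 (adjusted p = 6.5e-05) without them.

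3xHMG-box1 and 3xHMG-box2 encode proteins with 3 HMG boxes, known in Arabidopsis to be expressed mainly in dividing cells and to associate with condensed chromosomes in mitosis. 3xHMG-box2 was called higher in 10 salt comparisons and lower in 1. In the cortex its level was 4.43, 4.31 and 4.52 at standard 1 h, 4.97, 4.65 and 4.78 at standard 48 h, 6.35, 6.38 and 6.35 after 20 h of salt and 7.02, 6.50 and 7.16 after 32 h. The salt arrays lay above all standard arrays at both times, with changes of 1.75 (SE 0.33, adjusted p = 5.1e-06) and 2.28 (SE 0.33, adjusted p = 1.0e-08). In the endodermis the changes were 1.16 at 8 h, 1.98 (SE 0.33, adjusted p = 3.8e-07) at 20 h, 1.69 at 32 h and 1.67 at 48 h, all called. In the epidermis, where its standard levels were already 5.64 to 7.31, it was called at 32 h alone (1.09, SE 0.33, adjusted p = 0.0029), and its change of 1.00 at 8 h was just under the threshold before rounding although the 3 arrays lay above all standard ones.

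In the stele 3xHMG-box2 read 4.22, 4.21 and 6.77 at standard 1 h, 5.17, 4.59 and 5.29 at standard 48 h, 4.64, 3.77 and 3.56 after 3 h of salt and 6.09, 6.14 and 6.42 after 48 h. The 3 h arrays overlapped the standard arrays, and the fall of -1.05 (SE 0.33, adjusted p = 0.0045) rested on the high array: without stele standard 1 h replicate 3 it was -0.63 (adjusted p = 0.055). It was also not called without stele salt 3 h replicate 2 (-0.94) or 3 (-0.84) or stele standard 48 h replicate 3 (-0.99). The rise at 48 h (1.18, SE 0.33, adjusted p = 0.0014) was 1.60 without the 3 arrays that stood apart, and 0.97 and 0.96 without stele standard 1 h replicate 1 or 2.

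Other calls of 3xHMG-box2 also lay near the threshold. The change at 32 h in the epidermis was 0.87 without salt 32 h replicate 3, 0.92 without standard 1 h replicate 3, 0.95 without standard 48 h replicate 3 and 0.83 (adjusted p = 0.053) against standard 48 h alone. At 8 h in the cortex it was 1.02, and 0.97 without salt 8 h replicate 1, 0.99 without standard 1 h replicate 2, 0.98 without standard 48 h replicate 2 and 0.83 (adjusted p = 0.061) against standard 48 h alone. At 8 h in the endodermis it was 0.93 without salt 8 h replicate 1. Centring gave 0.92 at 8 h in the cortex and 0.89 at 32 h in the epidermis, and quantile normalization 0.92 and 0.98. At 48 h in the cortex, 3xHMG-box2 stood at 0.95 against standard 48 h alone.

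3xHMG-box1 was called higher in 12 comparisons, at 8 to 48 h in the epidermis, 20 to 48 h in the cortex and 3 to 48 h in the endodermis. In the endodermis its standard levels were 2.79, 3.23 and 2.68 at 1 h and 2.94, 2.52 and 2.82 at 48 h. After 3 h of salt they were 4.45, 3.99 and 4.22, above every standard array, a change of 1.39 (SE 0.23, adjusted p = 5.0e-07 with no filter). In the cortex the levels were 2.84, 3.06 and 3.26 at standard 1 h, 3.07, 3.44 and 3.47 at standard 48 h and 5.44, 5.30 and 5.18 after 32 h of salt, a change of 2.12 (SE 0.23, adjusted p = 2.3e-12 with no filter). In the stele none of its 6 changes, from -0.46 to 0.75, was called, and the 48 h value was 1.02 without the 3 arrays that stood apart. Its call at 20 h in the epidermis (1.08) was 0.89 without epidermis salt 20 h replicate 2, 0.92 with arrays centred and 0.99 against standard 48 h alone, and that at 48 h in the cortex (1.10) was 0.98 with arrays centred and 0.96 against standard 48 h alone.

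**Figure D3:**
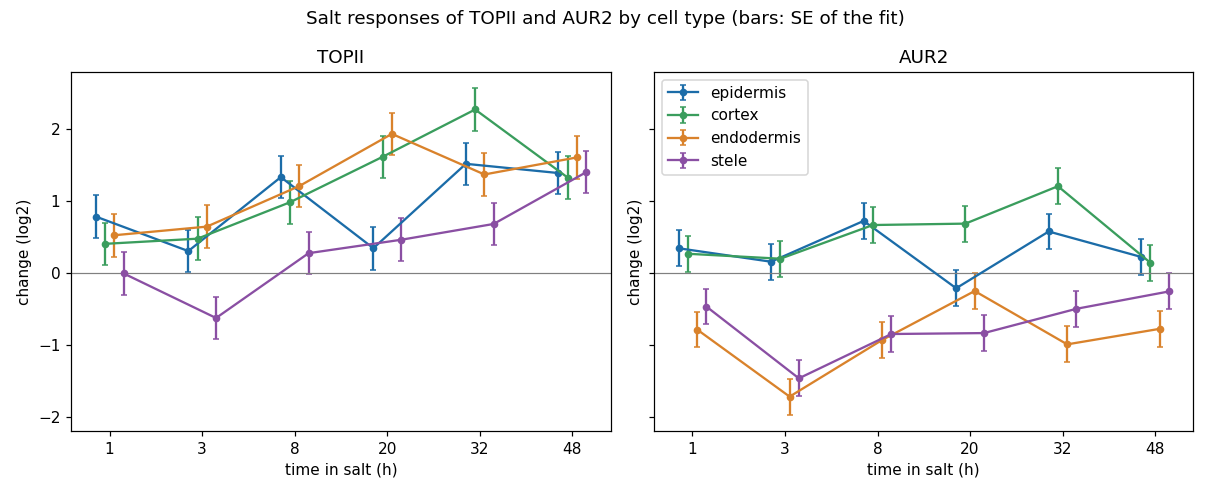
Change (log2) of TOPII and AUR2 in salt against standard medium at each time (h), by cell type, with bars for the standard error of the fit. TOPII is above 0 outside the stele at every time, whereas AUR2 is below 0 at all times in the endodermis and stele and reaches -1.71 and -1.46 at 3 h.

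AUR1 and AUR2 encode the alpha Aurora kinases of Arabidopsis, which act at the spindle and at the cell plate in division. AUR1 was called higher in 2 of 24 comparisons, at 32 h in the cortex and at 20 h in the endodermis. Its cortex levels were 4.94, 4.86 and 5.13 at standard 1 h, 5.03, 5.35 and 5.25 at standard 48 h and 6.26, 6.13 and 6.21 after 32 h, with no overlap and a change of 1.11 (SE 0.22, adjusted p = 1.3e-05). In the endodermis they were 5.33, 4.85 and 5.14 at standard 1 h, 4.89, 5.06 and 5.34 at standard 48 h and 6.25, 5.63 and 6.62 after 20 h, a change of 1.06 (SE 0.22, adjusted p = 2.7e-05). In the epidermis the changes at 32 and 48 h were 0.95 (adjusted p = 0.00013) and 0.83 (adjusted p = 0.00068), and against standard 1 h alone they were 1.18 and 1.06 and called.

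The AUR1 call in the endodermis was 0.84 without salt 20 h replicate 3, just under 1 without standard 1 h replicate 2, 0.89 with arrays centred and 0.94 with quantile normalization. That in the cortex was 0.96 with arrays centred and 0.99 against standard 48 h alone.

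The AUR2 changes were below 0 at all 6 times in the endodermis and in the stele, with 1 call in each. Its endodermis levels were 7.08, 6.66 and 6.95 at standard 1 h and 7.43, 6.62 and 6.72 at standard 48 h. They were 5.39, 5.17 and 5.02 after 3 h of salt, 5.70, 6.35 and 5.90 after 8 h and 6.90, 6.31 and 6.77 after 20 h. The 3 h arrays lay below every standard array, those of 8 h too, and those of 20 h overlapped them. AUR2 fell by 1.71 (SE 0.25, adjusted p = 1.5e-08) at 3 h, with a change of -0.93 (adjusted p = 0.00099) at 8 h and -0.25 (adjusted p = 0.38) at 20 h. At 32 h the change was -0.99 (adjusted p = 0.00044), which was called with arrays centred (-1.06) and, just past the threshold, against standard 48 h alone.

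In the stele AUR2 stood at 6.88, 5.30 and 6.69 at standard 1 h, 6.38, 5.46 and 6.13 at standard 48 h and 4.64, 4.86 and 4.54 after 3 h of salt, again below every standard array. The fall of -1.46 (SE 0.25, adjusted p = 7.0e-07) was -1.36 (adjusted p = 1.1e-06) without the 3 arrays that stood apart. In the cortex AUR2 moved the other way: levels of 4.26, 4.62 and 4.68 at standard 1 h and 5.07, 5.05 and 5.00 at standard 48 h stood against 6.10, 6.02 and 5.84 after 32 h, a change of 1.20 (SE 0.25, adjusted p = 2.3e-05) with no overlap. Against standard 48 h alone that change was 0.94. In the epidermis none of its 6 changes, from -0.21 to 0.72, was called, although 1.09 at 8 h was called against standard 1 h alone.

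AT4G15830 has no symbol in the gene table used and was called in 1 of 24 comparisons. In the cortex its levels were 4.05, 4.15 and 3.73 at standard 1 h, 3.78, 4.12 and 3.82 at standard 48 h, 4.86, 4.85 and 4.90 after 20 h of salt and 5.90, 5.83 and 5.25 after 32 h. The arrays at both salt times lay above all standard ones, with changes of 0.93 (adjusted p = 0.0012), short of the size threshold, and 1.72 (SE 0.25, adjusted p = 1.9e-08). After 48 h they were 4.34, 4.36 and 4.15 and overlapped the standard arrays. At 1 h of salt in the epidermis it stood below all standard arrays, with a change of -0.69 (adjusted p = 0.022) that was under the threshold in size.

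In standard medium the epidermis samples had the highest mean of the 4 cell types for each gene but AUR2. Against the mean of the other 3 types, the epidermis was called higher for 3 genes (background 6.04%), namely 3xHMG-box2 by 2.05 (SE 0.22, adjusted p = 5.4e-13), TOPII by 1.51 (SE 0.20, adjusted p = 3.4e-10) and AT4G15830 by 1.01 (SE 0.17, adjusted p = 2.8e-07). AUR1 (0.85, limma adjusted p = 6.5e-07) fell short of the size threshold there. It was called with arrays centred (1.02) and against standard 48 h alone (1.01). The 6 epidermis arrays of 3xHMG-box2 had a lowest level of 5.64, a median of 6.61 and a highest of 7.31, against 4.21, 4.88 and 6.77 in the stele, 4.31, 4.58 and 4.97 in the cortex and 3.32, 3.90 and 4.32 in the endodermis. The epidermis overlapped the stele there through stele standard 1 h replicate 3 and lay apart from the cortex and endodermis. The AT4G15830 call stood near the threshold: it was 0.91 against standard 1 h alone and 0.93 to 0.99 without 1 of 9 single arrays, namely replicates 1 and 2 of epidermis standard 1 h, replicate 1 of epidermis standard 48 h, replicate 3 of cortex standard 1 h, replicate 2 of endodermis standard 1 h, replicate 1 of endodermis standard 48 h, replicates 1 and 2 of stele standard 1 h and replicate 2 of stele standard 48 h.

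AUR2 was highest in the endodermis, where it was called higher than in the other 3 types (1.22, SE 0.17, adjusted p = 2.3e-09, background 6.0%), and lowest in the cortex (-1.61, SE 0.17, adjusted p = 5.5e-13, background of lower calls 0.618%). Its 6 standard arrays ran from 6.62 to 7.43 (median 6.83) in the endodermis, from 5.21 to 7.39 (median 6.05) in the epidermis, from 5.30 to 6.88 (median 6.25) in the stele and from 4.26 to 5.07 (median 4.84) in the cortex. The cortex lay below every array of the other types, and the other three overlapped. The endodermis was called lower for 3xHMG-box2 (-1.52, SE 0.22, adjusted p = 1.4e-08) and TOPII (-1.14, SE 0.20, adjusted p = 9.5e-07), where 4.81% of all genes were called lower.

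No gene was called higher in the stele by limma (background 4.81%), and AUR1 was the 1 gene with an unadjusted p under 0.05 (0.34, SE 0.15). Without the 3 arrays that stood apart, the 7 differences of the stele ran from -0.41 for 3xHMG-box2 to 0.17 for AUR1, and that of TOPII was -0.36 in place of 0.07, none of them called. In the order of mean standard levels over all arrays, the stele came second for each gene but AUR2 and overlapped its neighbours in the order throughout, save that it lay apart from the cortex for AUR2. Without the 3 arrays its mean was below that of the cortex for TOPII (3.75 against 3.78), 3xHMG-box1 (3.14 against 3.19) and PRL (4.34 against 4.38), with overlap in each case. The stele then lay apart from the epidermis for 3xHMG-box2 and, by a narrow gap (highest 4.40 against lowest 4.47), for TOPII. Over all arrays, cortex and endodermis overlapped as neighbours for the 6 genes other than AUR2. These comparisons set samples of different reporter lines side by side.

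Between the 2 standard groups no gene of the 7 was called by limma in any cell type, while 1.87% of all genes were called for epidermis samples, 2.36% for cortex, 2.29% for endodermis and 6.28% for stele samples. Of the 28 comparisons, 2 had an unadjusted p under 0.05, that of AUR2 in the epidermis (0.75, SE 0.29, adjusted p = 0.10) and that of PRL in the endodermis (-0.56, SE 0.28, adjusted p = 0.21). Without the 3 arrays that stood apart, the 7 stele changes ran from -0.10 for AUR2 to 0.80 for 3xHMG-box2, each short of the size threshold. The 3xHMG-box2 change was -0.05 with those arrays. That of AT4G15830 was 0.78 in place of 0.07 and that of TOPII 0.57 in place of -0.25. In the cortex all 3 standard 48 h arrays lay above all 3 standard 1 h arrays for AUR2 (0.52), TOPII (0.48) and 3xHMG-box2 (0.38), none called. Salt for 48 h was also set against standard 48 h alone, the group of the same duration. PRL and TOPII then remained called higher in all 4 cell types (PRL 1.17 to 1.61, TOPII 1.08 to 1.52), 3xHMG-box2 in the endodermis (1.66) and stele (1.20), and 3xHMG-box1 in the epidermis (1.45) and endodermis (1.44). At 1 h against standard 1 h alone, 1 call was made, that of TOPII in the epidermis, and PRL there gave 0.98 (adjusted p = 0.0034).

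A comparison that uses no standard arrays set the mean of 32 and 48 h of salt against that of 3 and 8 h. The late level was called higher in the cortex for TOPII (1.07, SE 0.24, adjusted p = 0.00038), 3xHMG-box1 (1.07, SE 0.19, adjusted p = 9.9e-06 with no filter) and AT4G15830 (1.01, SE 0.21, adjusted p = 9.8e-05), where 1.59% of all genes were. TOPII and 3xHMG-box1 had all 6 late arrays above all 6 early ones, and the AT4G15830 arrays overlapped. In the stele TOPII (1.21, SE 0.24, adjusted p = 5.2e-05) and 3xHMG-box2 (1.29, SE 0.27, adjusted p = 0.00012) were called, with a background of 2.25%, and in the endodermis 3xHMG-box2 was called at 1.00 (SE 0.27, adjusted p = 0.0017) with a background of 2.65%. In the epidermis limma called none (1.18%), with unadjusted p under 0.05 for 4 of the 7 genes and changes from -0.04 to 0.83.

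Several of these calls lay just over the size threshold. The cortex value of AT4G15830 was 0.95 to 1.00, and under 1, without salt 3 h replicate 1, salt 8 h replicate 2, salt 32 h replicate 1 or 2 or salt 48 h replicate 1 or 2, and 0.93 to 0.96 with quantile normalization and with arrays centred. That of 3xHMG-box1 was 0.98 without salt 8 h replicate 2 and 0.96 with quantile normalization. The endodermis value of 3xHMG-box2 was 0.84 to 1.00, and under 1, without salt 3 h replicate 2 or 3, salt 8 h replicate 2, salt 32 h replicate 1 or salt 48 h replicate 3, 0.90 with arrays centred and 0.94 with quantile normalization.

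A moderated F test of the difference among the 4 changes called 2 of the 7 genes at 1 h (background 21.4%), 4 at 3 h (34.5%), 3 at 8 h (28.1%), 6 at 20 h (30.5%) and 6 at 32 h (29.4%), at an adjusted p under 0.05 and a range of at least 1. Of the 6 genes other than 3xHMG-box1 it called 1, 3, 2, 5 and 5 at these times. Without the 3 arrays that stood apart, the calls among the 7 numbered 1, 3, 3, 4 and 6. At 48 h none was called (26.8%), with an unadjusted p under 0.05 for AUR2 alone, whose range of just under 1 was 1.35 and called against standard 1 h alone and 1.05 and called without the 3 arrays that stood apart. AUR1 was the gene not called at 20 and 32 h. At 32 h AUR2 had changes of 0.58 in epidermis, 1.20 in cortex, -0.99 in endodermis and -0.50 in stele samples (adjusted p = 7.1e-07). PRL had changes of 1.99, 1.67, 1.25 and 0.36 in the same order (adjusted p = 0.00031), and 3xHMG-box1 of 1.79, 2.12, 1.17 and 0.43 (adjusted p = 7.7e-05 with no filter), with the stele lowest for both. Without the 3 arrays that stood apart, the stele changes were 0.63 for PRL and 0.70 for 3xHMG-box1, again the lowest of the 4, and the range for PRL was 1.33 (adjusted p = 0.0027) in place of 1.63. TOPII at 32 h was not called against standard 48 h alone (adjusted p = 0.14). At 3 h the TOPII call ended without stele standard 1 h replicate 3, stele salt 3 h replicate 2 or 3 or stele standard 48 h replicate 1 (adjusted p 0.12, 0.062, 0.13 and 0.055), and that of 3xHMG-box2 without stele salt 3 h replicate 3 (adjusted p = 0.068). Against standard 48 h alone neither was called at 3 h (adjusted p 0.24 and 0.074). At 20 h the range for AT4G15830 was 0.91 without stele standard 1 h replicate 3, stele standard 48 h replicate 1 or stele salt 20 h replicate 3, and 0.99 without cortex standard 1 h replicate 3 or cortex standard 48 h replicate 1. PRL at 20 h had a range of 0.95 without stele standard 1 h replicate 3, 0.90 (adjusted p = 0.063) without endodermis salt 20 h replicate 3 and 1.10 (adjusted p = 0.052) without stele salt 20 h replicate 2. At 1 h the range for 3xHMG-box1 was 0.99 without stele standard 1 h replicate 3, and that for AUR2 was just under 1 without endodermis standard 48 h replicate 1, 0.98 with arrays centred, 0.85 with quantile normalization and 0.80 against standard 48 h alone. AUR2 at 20 h had a range of 1.11 (adjusted p = 0.060) against standard 48 h alone.

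**Figure D4:**
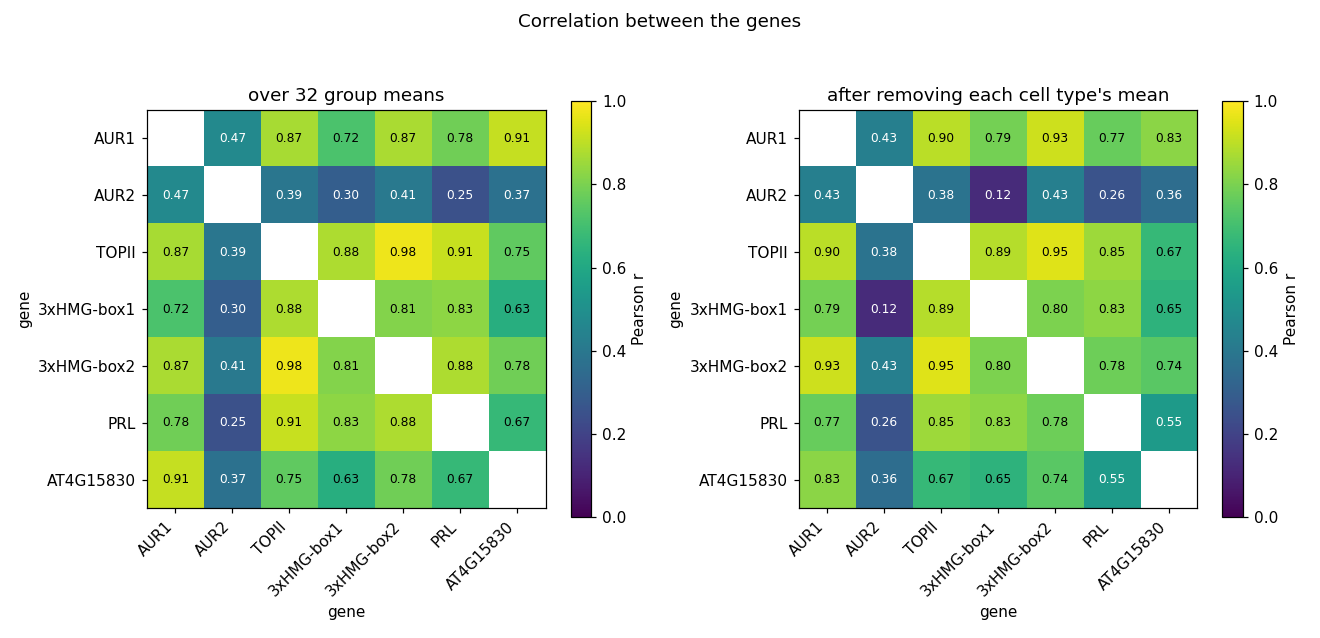
Pearson correlation between the genes over the 32 group means (left) and after each cell type's mean is removed (right). AUR2 is the row with the lowest values in both panels, from 0.25 to 0.47 on the left and from 0.12 to 0.43 on the right, and TOPII with 3xHMG-box2 is the highest pair.

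Across the 32 group means the 6 genes other than AUR2 correlated with one another at 0.63 (3xHMG-box1 with AT4G15830) to 0.98. The correlation of TOPII with 3xHMG-box2 was 0.98, that of AUR1 with AT4G15830 0.91, that of PRL with TOPII 0.91 and that of PRL with AT4G15830 0.67. AUR2 correlated with the other 6 at 0.25 (PRL) to 0.47 (AUR1), also the lowest value of each partner. With each cell type's mean removed, TOPII and 3xHMG-box2 stood at 0.95, AUR1 and 3xHMG-box2 at 0.93, PRL and AT4G15830 at 0.55, and AUR2 at 0.12 to 0.43 with the others. These values are descriptions over points that share arrays, reporter lines and the normalization.

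The 5 genes outside the 7 whose group means were most like the mean of the 7 were AT5G17160 (r 0.98), AT3G51720 (0.97), AT4G40000 (0.96), UBC20 (0.96) and AT3G51280 (0.95), over 32 groups and among 7274 genes. UBC20 encodes a ubiquitin-conjugating enzyme, and its group means ran from 4.58 to 8.88. The others have no symbol in the table used. Across all 7274 genes the median r was 0.07, and 8.21% of them had r over 0.8.

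Of 85 other cell cycle genes listed by code, 7 have a probe set paired with 1 gene in the annotation used, no cyclin or cyclin-dependent kinase among them, and 3 passed the filter on low levels. AUR3, the third Aurora kinase gene of Arabidopsis, was called higher in 7 of 24 salt comparisons and was above 0 in all. Its epidermis levels were 3.45, 3.73 and 3.41 at standard 1 h, 3.74, 3.38 and 3.39 at standard 48 h and 5.86, 4.91 and 5.22 after 48 h of salt, which lay apart (1.81, SE 0.20). AUR3 reached a group mean of 5 only after 32 and 48 h of salt in the epidermis (5.19 and 5.33). It was thus tested through groups in which it was high, and its calls are a description. AT5G26680, listed as FEN1, a flap endonuclease that trims DNA ends in replication, was called higher in 8 of 24, with the largest change of 1.51 at 32 h in the epidermis. AT5G26680 reached a group mean of 5 only in salt, so its calls too are a description. Shares of all genes called higher in salt are given above for each cell type and time. SIM, an inhibitor of cyclin-dependent kinases that acts in cells leaving division, was called in none, since its 24 changes, from -0.93 to -0.21, did not reach the size threshold, although the unadjusted p was under 0.05 in 18 and the adjusted p in 17.

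The other 4 stayed under the filter, so that they were not tested. HTR12, which encodes the histone H3 of the centromere, was measured at 3.81, 3.67 and 3.46 at standard 1 h, 3.45, 3.26 and 3.61 at standard 48 h and 4.84, 4.90 and 5.18 after 32 h of salt in the epidermis, with no overlap. ICU2, a catalytic subunit of DNA polymerase alpha, had a highest group mean of 4.24, the checkpoint gene BUBR1 of 4.11 and the phragmoplast gene KINESIN-12B of 4.71. For HTR12, ICU2 and BUBR1 the group with the highest mean was the epidermis after 32 h of salt. ICU2 read 3.95, 4.76 and 4.02 there, above its epidermis standard arrays (2.87 to 3.26). BUBR1 read 4.10, 3.82 and 4.40 there and overlapped its epidermis standard arrays (3.07 to 4.04). BBM also stayed under the filter with group means up to 4.33. UPB1, the other gene measured of those listed for the root meristem, was tested and not called in any salt comparison (-0.38 to 0.90, unadjusted p under 0.05 in 10 of 24).

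A further 5 cell cycle genes were picked from the annotation's symbols after it had been read. BUB3.1, of the spindle checkpoint, was called higher in 11 of 24 salt comparisons, POLA3, of the DNA polymerase alpha complex, in 5 and CDC27a, of the anaphase-promoting complex, in 3, while BUB3.2 and POLD3 stayed under the filter. The shares of all genes called higher, given above by cell type and time, apply to these counts as well. In the cortex BUB3.1 read 5.22, 5.14 and 5.08 at standard 1 h, 5.09, 4.63 and 5.03 at standard 48 h and 6.90, 6.67 and 6.92 after 32 h of salt, with no overlap (1.80, SE 0.20, adjusted p = 5.3e-12). The 3 calls of CDC27a were all in the stele, at 1, 3 and 32 h (1.01 to 1.13), where limma called none of the 7 genes higher. CDC27a reached a group mean of 5 only in stele samples at 3 and 32 h of salt (5.07 and 5.03). It was thus tested through groups in which it was high, and these calls are a description.

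Markers of the cell types also had called changes in salt. EXPA7, of root hair cells, was called lower in 16 of 24 salt comparisons, EXPA18 in 13, AT1G62510 in 23, AT1G09750 in 8 and GSO1 in 8. LHW, in contrast, was called higher in 5, but it reached a group mean of 5 (log2) only in salt, so those calls are a description. The share of all genes called lower in salt is given above for 3 h in the endodermis and stele alone, so the counts of lower calls are a description. The summed level of the 2 epidermal markers of 5 listed ranged over group means from 8.97 to 10.79 in standard medium and from 6.87 to 10.35 in salt in epidermis samples. That of both cortex markers ranged from 10.44 to 10.65 and from 8.06 to 9.73 in cortex samples and from 9.70 to 9.71 and from 4.53 to 7.12 in endodermis samples. That of the 1 endodermal marker of 5 listed ranged from 10.26 to 10.37 and from 9.71 to 11.23 in endodermis samples, and that of the 1 stele marker of 7 listed from 4.38 to 4.71 and from 5.08 to 5.89 in stele samples. Their part in the results on the 7 genes was not tested.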

How the data were processed

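The authors deposited 1 log2 value per probe set and array. Per the submitters' processing notes, GCRMA and Affymetrix Expression Console were used, with no version given here. GCRMA is a method that adjusts for background and brings arrays to a common scale. No further scaling was applied. The platform annotation gives a single gene for 13513 of 22810 probe sets and several for 503, and 8730 are not listed in it and 64 are controls. Symbols follow the TAIR10.1 gene table, used for names only. Genes read by more than 1 probe set kept the probe set with the highest mean over the 96 arrays.

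All 32 groups entered 1 fit with R 4.3.3 and limma 3.58.1 (64 residual degrees of freedom, eBayes, two-sided p). The fit was tested on simulated data. The genes and lists were chosen with earlier results of these data known, and named genes follow a rule of likeness (5 highest correlations) and of most calls per list (up to 3). Alternatives were each standard group alone, quantile normalization, centring, other filters, the arrays of 1 cell type, the replicate number as a block, leaving out each array, and leaving out 3 arrays. Deviations of same-numbered arrays from their group means had a median r of -0.02 to 0.03 in the 4 cell types. Of 84 such pairs per cell type, 34 in the epidermis, 30 in the stele, 16 in the endodermis and 7 in the cortex had r over 0.1. Medians of other pairs were -0.03 in the epidermis and -0.01 in the stele, against 0.02 and 0.03. Some shared deviation by number is thus possible there. The numbers were not taken to pair samples in the main fit. The number of arrays limits the precision, and no detection calls were used.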

Additional observations from a re-analysis of the deposited data

Results flagged for a closer look

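The salt response was called different among the 4 cell types in 21 of 42 combinations of gene and time. Each call came from a moderated F test of the difference itself (adjusted p under 0.05) with a range among the 4 changes of at least 1 (log2). Shares of all genes called by the same test are given above for each time. For AUR2 the range was 1.13 at 1 h, 1.91 at 3 h, 1.65 at 8 h, 1.52 at 20 h and 2.19 at 32 h. For 3xHMG-box1 it was 1.26 at 1 h, 1.31 at 3 h, 1.09 at 8 h, 1.62 at 20 h and 1.69 at 32 h, and since that gene was tested through its levels in salt, these 5 values are a description; with no filter on low levels all 5 were also called. For 3xHMG-box2 it was 1.64 at 3 h, 1.87 at 20 h and 1.91 at 32 h, and for TOPII 1.27, 1.58 and 1.59 at the same times. For PRL it was 1.33 at 8 h, 1.22 at 20 h and 1.63 at 32 h, and for AT4G15830 1.02 at 20 h and 1.49 at 32 h. AUR1 met both criteria at none of the 6 times. Calls that ended without some single array were those of AUR2 and 3xHMG-box1 at 1 h and of TOPII and 3xHMG-box2 at 3 h. Those of PRL and AT4G15830 at 20 h ended in that way too. Reporter line and sort differ with cell type in each of these comparisons.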

How the results depend on the processing

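With the replicate number as a block, none of the 54 salt calls was lost and the count in the epidermis was again 14. Where the gene was still tested, 16 of those 54 calls were lost under at least 1 other setting, 12 without 1 single array and 18 under either, and no called value turned its direction under any alternative. The stricter filter leaves 3xHMG-box1 and AT4G15830 untested, which hold 13 of the 54 calls, and gives 10, 13 and 12 rises in epidermis, cortex and endodermis. Rises in the epidermis numbered 9 of the main 14 with arrays centred, a setting that moved the median change of all genes there from 0.08 to -0.13 at 32 h. Falls in the endodermis numbered 2 in place of 1 with arrays centred and against standard 48 h alone. Without the 3 arrays that stood apart, the stele had 5 rises in place of 3 and 1 fall in place of 2. Between late and early salt, the cortex had 1 gene in place of 3 with quantile normalization and 1 with the stricter filter, which tests 2 fewer of the 7 genes, and the endodermis 0 in place of 1 with centring and with quantile normalization. Leaving out 1 array gave 11 to 17 rises in the epidermis, 15 to 18 in the cortex, 16 to 18 in the endodermis and 1 to 5 in the stele. Falls then numbered 1 to 3 in the endodermis and 1 to 4 in the stele. Late against early salt gave 1 to 3 genes in the cortex and 0 to 1 in the endodermis, standard 48 h against 1 h 0 to 1 in the epidermis, the epidermis against other types 2 to 4, and the difference among responses 17 to 25 combinations around the main 21.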
